A study of Mus musculus with 6 samples.

Results

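The genes described here are 52 genes of the mitotic spindle, the spindle checkpoint and cytokinesis. They were chosen by name for what their products do in mitosis, with earlier results of these data known. All 52 were found among the 22911 genes that the array probes name through a RefSeq accession, and all 52 were among the 14898 genes tested. By role they comprised 10 mitotic kinases, cyclins and phosphatases, 4 spindle checkpoint genes, 4 subunits of the chromosomal passenger complex, 4 genes of anaphase onset, 8 kinetochore and centromere genes, 7 kinesins and spindle assembly genes, 6 genes of the midzone and cytokinesis, 6 condensin and topoisomerase genes, and 3 others (*Foxm1*, *Mybl2*, and *Mki67*).

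The study made a mouse model of diffuse glioma by gain of mutant histone H3.3, and asked on arrays how RNA expression in the mutant cells differs from that in control cells. Both groups derive from OS3, a line of male mouse brain glial cells (strain C3H in the labels, newborn C3H/HeN in the methods) immortalized with SV40, so the control cells carry the SV40 background too. WT cells (OS3-vector) received the empty plasmid, and IG27 cells (OS3-H3F3A_K27M) received pcDNA3.1 carrying *H3f3a* with the K27M change, a plasmid type that drives its insert from a strong viral promoter. Several clones were kept after drug selection, and the sources used here do not state whether the arrayed cells are 1 clone. Each group was sampled 3 times after 2 days in minimum essential medium α with 10% fetal bovine serum, 5 µg/ml insulin, and 0.2% glucose. The 3 samples of a group come from the same line, so the p-values measure the spread between samples of that line and not between independently made lines.

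In mitosis, cyclin-dependent kinase bound to A and B type cyclins drives chromosome condensation and spindle assembly. Kinetochores then tie the chromosomes to microtubules while the spindle checkpoint holds back the anaphase promoting complex. Once every chromosome is attached, separase cuts cohesin, kinesins and the central spindle move the spindle poles apart, and the contractile ring divides the cell. Many of these genes are transcribed together late in the cell cycle by complexes that hold B-Myb and FoxM1, and are kept silent in resting cells by the DREAM complex, so their RNA is widely read as a sign of how many cells are in G2 and mitosis.

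Levels are given as normalized log2 intensity, which is log2 of the processed signal minus the 75th percentile of the same array, so a level of 0 is the 75th percentile of the array. A difference is the mean of the 3 IG27 arrays minus the mean of the 3 WT arrays on that log2 scale, and a gene was called where the adjusted p from limma was under 0.05. Levels of different genes come from different probes and were not compared with each other. On the 5 arrays with full scanner output, 58.8% to 61.2% of the probes were well above background, and all 52 mitotic genes were among the 13544 genes well above background on all 5 of them. The scanner output of IG27 replicate 2 ends after 285 spots, so its values came from the deposited value table, and without this array 40 of the 52 genes were still called lower and 2 higher. The line carried the glial markers *Gfap*, *Vim*, *Nes*, *Sox2*, *Sox10*, and *Olig1* well above background in both groups, and *Slc1a3* in IG27 cells only. In contrast, *Ptprc*, *Cx3cr1*, *Cdh5*, *Cldn5*, *Rbfox3*, *Syt1*, and *Dcx* were not well above background on any of the 5 arrays with full scanner output. Other genes of the same marker lists were well above background in both groups, among them *Itgam*, *Csf1r*, *Cd68*, *Snap25*, *Tubb3*, *Col1a1*, and *Col3a1*. The probe for *H3f3a* itself was 0.26 lower in IG27 cells (SE 0.08, adjusted p = 0.0237), and since the sources used here do not say whether it reads the transcript of the plasmid, it does not check the labels.

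The mitotic genes were mostly lower in IG27 cells. Of the 52 genes, 40 were called lower, 2 were called higher (*Smc2* and *Cdc20*), and 10 were not called. Over all 14898 genes tested, 40% were called lower and 30.5% were called higher, so that lower calls were common among all genes and made up 76.9% of the mitotic genes. At least 2-fold lower and called were 8 of the 52 mitotic genes, a share not far above the 11.7% of all genes. These 8 were *Ect2*, *Ccna2*, *Kif4*, *Kif15*, *Spc25*, *Ccnb2*, *Bub1b*, and *Kif23*. No mitotic gene was called at least 2-fold higher. Every IG27 array lay below every WT array for 41 of the 52 genes, against 42.4% of all genes. The median difference was -0.53, with a range from -1.53 (*Ect2*) to 0.49 (*Smc2*), beside a median of -0.07 over all genes tested. In RNA from a whole dish, fewer cells passing through mitosis and less of these RNAs in each cell cannot be told apart. The study reports slightly higher proliferative activity of IG27 than WT cells in a cell counting assay, whose link to these RNAs was not tested.

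**Figure D1:**
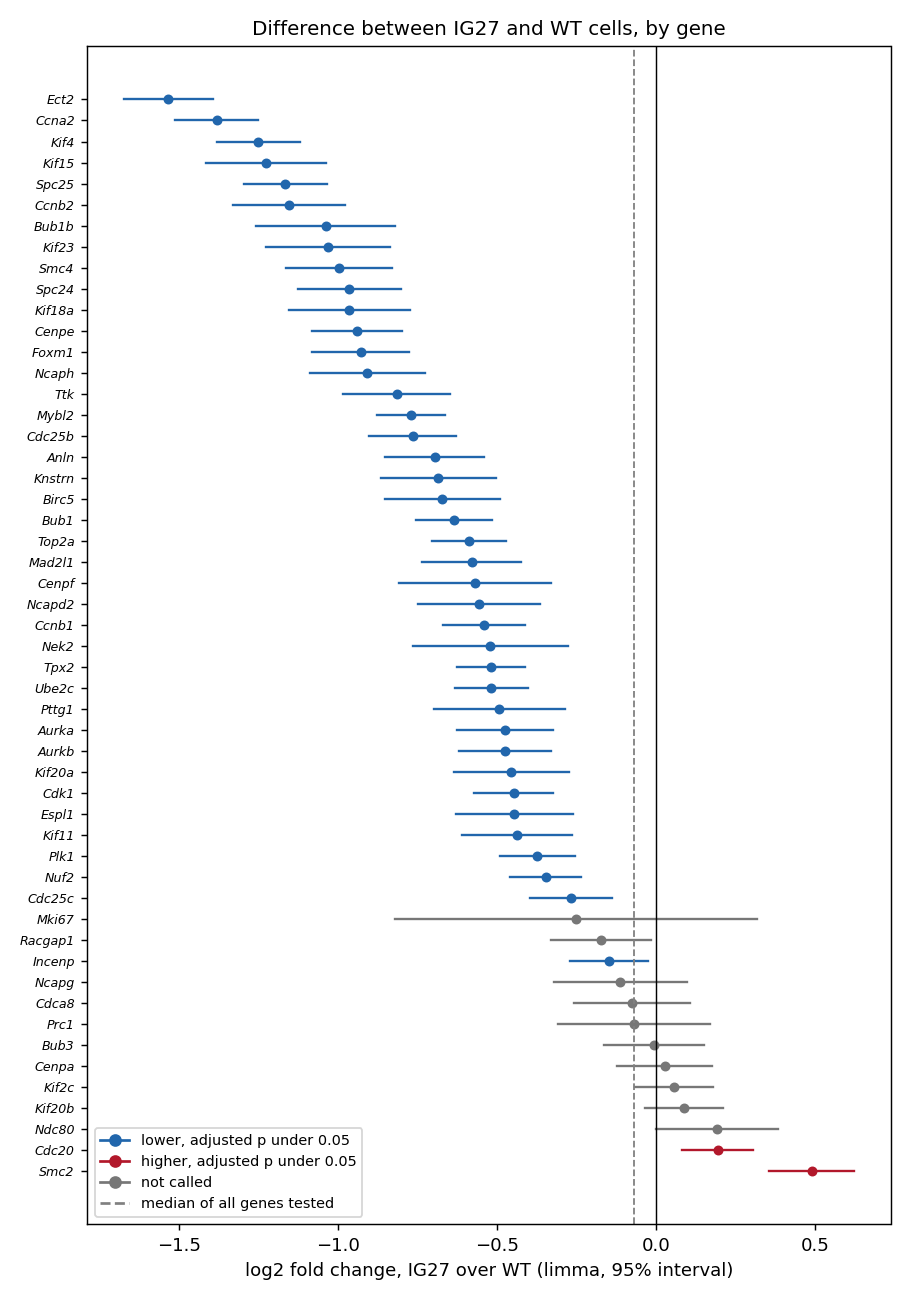
Difference between IG27 and WT cells for each of the 52 mitotic genes (horizontal axis: log2 fold change, IG27 over WT, 3 arrays a group; points: limma estimate; lines: 95% interval; dashed line: median of all genes tested). The 40 genes called lower lie left of 0 with intervals that do not reach it, and *Cdc20* and *Smc2* are the 2 genes called higher.

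The spread between arrays of a group was small beside these differences. The SD of a mitotic gene over the 3 arrays had a median of 0.07 in WT cells (range 0.01 to 0.48) and of 0.06 in IG27 cells (range 0.01 to 0.17). The widest value in WT cells belonged to *Mki67*. On single arrays, the median level of the 52 genes ran from 4.17 to 4.23 in WT cells and from 3.79 to 3.83 in IG27 cells, so that the 2 groups did not overlap. WT replicate 2 was the lowest of the WT arrays, with 12 of 52 genes above their WT mean against 29 and 31 genes on the other WT arrays.

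**Figure D2:**
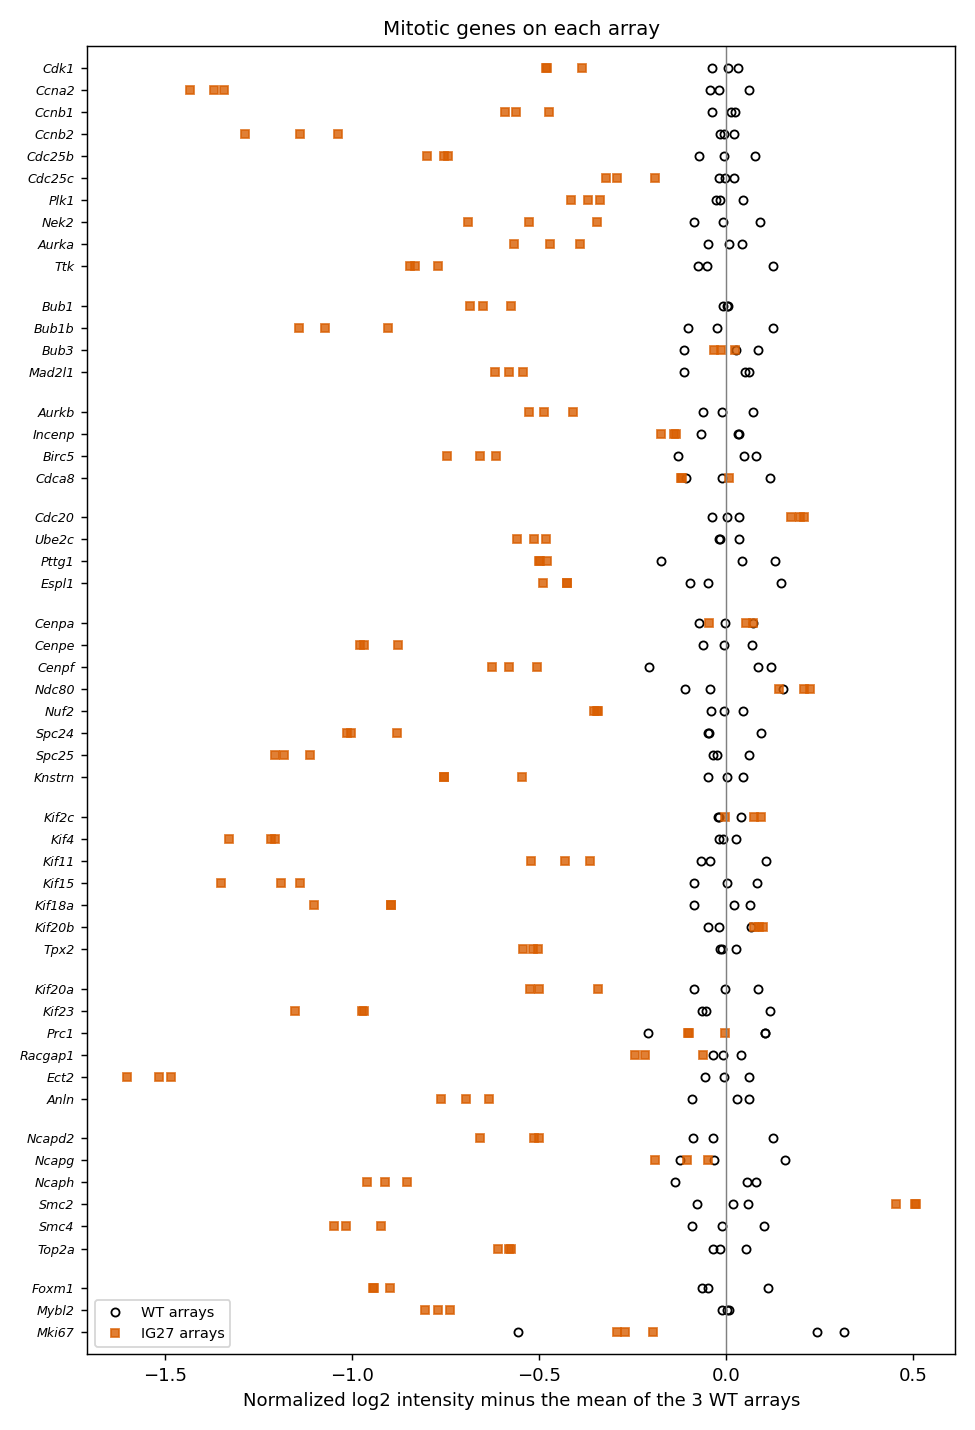
Level of each mitotic gene on each of the 6 arrays (horizontal axis: normalized log2 intensity minus the mean of the 3 WT arrays; open circles: WT arrays; filled squares: IG27 arrays; genes ordered by role). For 41 of the 52 genes all squares lie left of all circles, against 42.4% of all genes tested, and *Mki67* shows the widest spread of WT arrays (SD 0.48).

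The promoters of these genes are shown because the genes moved largely together, and because genes of this kind are known to share short promoter elements. The cell cycle homology region, here TTTGAA, is the element at which the DREAM and MuvB complexes bind, and the CCAAT box is the element of NF-Y. The RefSeq promoter table (build GRCm38.p6) holds a window from 250 bases before to 50 bases after the annotated start for 43 of the 52 genes, with more than 1 window for *Bub3*, *Ect2*, and *Prc1*. The genes with no window in the table are *Smc4*, *Ccna2*, *Kif20a*, *Incenp*, *Spc24*, *Cdc25c*, *Aurkb*, *Tpx2*, and *Foxm1*. The 120 bases before the start follow for 9 genes, written 5′ to 3′ on the strand of the gene in lower case, with capitals for TTTGAA and CCAAT and for their reverse complements TTCAAA and ATTGG. *Ect2*, *Kif15*, *Top2a*, *Ube2c*, and *Cdk1* are the 5 genes with the largest called falls that hold TTTGAA in this stretch, *Cdc20* and *Smc2* are the genes called higher, and *Kif18a* and *Ncaph* are those with the largest falls that hold neither element in it. The stretches lie at chr3:27153879-27153998 (*Ect2*, minus strand, the first of its windows), chr9:122950961-122951080 (*Kif15*, plus strand), chr11:99024190-99024309 (*Top2a*, minus strand), chr2:164769809-164769928 (*Ube2c*, plus strand), chr10:69352913-69353032 (*Cdk1*, minus strand), chr4:118437344-118437463 (*Cdc20*, minus strand), chr4:52439101-52439220 (*Smc2*, plus strand), chr2:109280618-109280737 (*Kif18a*, plus strand), and chr2:127133955-127134074 (*Ncaph*, minus strand).
Ect2: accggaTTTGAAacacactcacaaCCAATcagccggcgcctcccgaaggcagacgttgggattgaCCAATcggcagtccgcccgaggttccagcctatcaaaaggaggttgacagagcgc
Kif15: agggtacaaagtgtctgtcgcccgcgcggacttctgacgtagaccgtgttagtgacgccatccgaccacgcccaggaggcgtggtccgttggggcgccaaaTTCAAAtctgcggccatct
Top2a: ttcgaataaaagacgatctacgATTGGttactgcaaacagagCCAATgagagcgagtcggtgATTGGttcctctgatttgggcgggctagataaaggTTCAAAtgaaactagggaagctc
Ube2c: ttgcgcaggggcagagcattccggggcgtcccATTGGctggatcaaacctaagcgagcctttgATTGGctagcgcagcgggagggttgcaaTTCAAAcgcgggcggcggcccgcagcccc
Cdk1: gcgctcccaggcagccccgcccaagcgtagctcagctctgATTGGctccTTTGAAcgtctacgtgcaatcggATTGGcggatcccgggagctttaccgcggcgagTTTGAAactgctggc
Cdc20: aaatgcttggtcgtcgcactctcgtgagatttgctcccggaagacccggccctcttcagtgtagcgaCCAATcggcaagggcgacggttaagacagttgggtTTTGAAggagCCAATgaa
Smc2: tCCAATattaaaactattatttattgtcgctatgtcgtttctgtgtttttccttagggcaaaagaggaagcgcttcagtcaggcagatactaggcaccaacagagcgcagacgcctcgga
Kif18a: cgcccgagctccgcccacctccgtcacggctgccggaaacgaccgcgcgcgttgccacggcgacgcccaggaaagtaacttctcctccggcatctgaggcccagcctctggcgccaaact
Ncaph: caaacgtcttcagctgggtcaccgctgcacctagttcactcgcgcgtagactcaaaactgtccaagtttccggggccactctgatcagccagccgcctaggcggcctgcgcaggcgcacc

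The TTTGAA element was common in these windows. On either strand, 30 of the 43 genes with a window held it (69.8%), against 15.0% of the 11808 tested genes with a window and 20.2% of all 27025 genes of the table. Within position -100 to 50 from the start, 28 of the 43 genes held it, against 6.07% of the tested genes. The variant TTCGAA, which is its own reverse complement, was in 4 windows (9.30%), those of *Bub1*, *Bub1b*, *Cdc25b*, and *Top2a*, against 2.30% of the tested genes. The CCAAT box was in 30 of 43 windows (69.8%), against 42.9% of the tested genes and 41.1% of the table, and 25 genes held it together with TTTGAA, against 7.38% of the tested genes. *Cdk1* held TTTGAA at positions -71 and -15 and *Cdc20* at position -18. E2F octamers (TTTCCCGC, TTTGGCGC, or TTTCGCGC) were in 5 windows (11.6%), those of *Cdk1*, *Kif15*, *Kif18a*, *Ncapd2*, and *Ncapg*, against 3.75% of the tested genes. The forkhead element GTAAACA was in the windows of *Ect2* and *Nuf2* (4.65% of 43 genes, 3.25% of the tested genes). No element searched contains another of them, and a match of letters is a description and not a bound site.

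Holding TTTGAA did not go with a larger fall among the mitotic genes with a window. The 30 genes with it had a median difference of -0.45, with 18 called lower and 2 called higher, and the 13 genes without it had a median of -0.67 and were all called lower. Those without it include *Kif18a*, *Cenpe*, *Ncaph*, *Mybl2*, and *Cdc25b*, and among them *Bub1* and *Cdc25b* hold the variant TTCGAA. The 9 mitotic genes with no window, all called lower, are outside this split. Genes with and without TTTGAA are spread unevenly over chromosomes, whose part in this split was not tested. All 4 genes on chromosome 4 (median of all tested genes 0.33) and all 4 on chromosome 7 (0.13) hold it. So do *Kif15*, *Ccnb2*, *Kif23*, *Ttk*, and *Anln* on chromosome 9 (-0.64). On chromosome 2 (-0.34), *Kif18a*, *Ncaph*, *Mybl2*, *Cdc25b*, *Knstrn*, and *Bub1* lack it, and *Aurka*, *Bub1b*, *Spc25*, and *Ube2c* hold it. Over all tested genes with a window, the median difference was -0.06 with TTTGAA (38.8% called lower) and -0.08 without it (40.8% called lower).

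**Figure D3:**
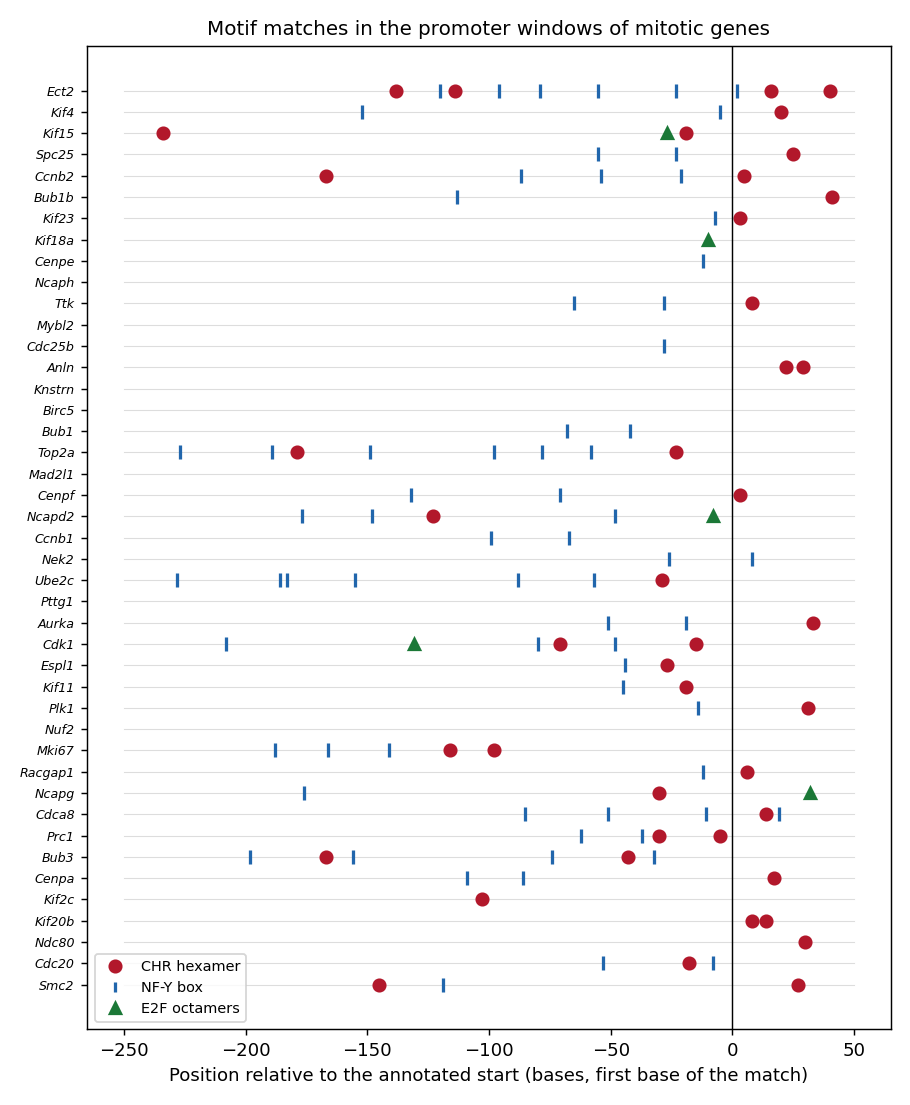
Position of motif matches in the promoter windows of the 43 mitotic genes with a window (horizontal axis: first base of the match, in bases from the annotated start; red circles: cell cycle homology region; blue bars: CCAAT or NF-Y box; green triangles: E2F octamers; genes ordered from the largest fall at the top; matches from more than 1 window of a gene drawn on 1 line). Red circles sit mostly close to the start (median position -15) and blue bars mostly before it (median position -67.5), and genes at the bottom, which were not called or were higher, carry them as well.

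Of the listed kinases, cyclins and phosphatases of mitotic entry, 10 of 10 were called lower, against 40% of all genes. Their median difference was -0.53. This did not extend to 17 other kinases, phosphatases and regulators of mitotic entry and exit, with 8 called lower and 5 higher (median -0.04). *Ccna2*, cyclin A2, which acts from S phase to early mitosis, had normalized log2 levels of 5.22, 5.24, and 5.32 on the WT arrays and 3.89, 3.92, and 3.83 on the IG27 arrays. *Ccnb2*, cyclin B2, a mitotic partner of Cdk1, had normalized log2 levels of -1.06, -1.02, and -1.04 in WT cells and -2.33, -2.08, and -2.18 in IG27 cells. In both cyclins the groups stood far apart, and they were 2.61-fold (difference -1.38, SE 0.05, adjusted p = 2.75e-06) and 2.23-fold (difference -1.15, SE 0.07, adjusted p = 2.17e-05) lower in IG27 cells. The major B type cyclin, *Ccnb1*, fell less, from 4.63, 4.58, and 4.64 to 4.15, 4.03, and 4.06 (difference -0.54, SE 0.05, adjusted p = 1.63e-04). This brightest probe gave the smallest fall of the 3 probes of *Ccnb1*, which ran from -0.78 to -0.54. *Cdk1* itself, the kinase these cyclins activate, had normalized log2 levels of 4.18, 4.14, and 4.21 in WT cells and 3.79, 3.70, and 3.70 in IG27 cells (difference -0.45, SE 0.05, adjusted p = 3.37e-04). Its 3 IG27 arrays all lay below the lowest WT array, as in 42.4% of all genes.

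The phosphatases that switch Cdk1 on moved by different amounts. *Cdc25b* fell by 0.77 on the log2 scale (SE 0.06, adjusted p = 4.25e-05), with its IG27 arrays between -0.37 and -0.31 and its WT arrays between 0.36 and 0.51. *Cdc25c* was 0.27 lower (SE 0.05, adjusted p = 0.00436), a call that quantile normalization ended (difference -0.10, adjusted p = 0.159). Among the other mitotic kinases, *Ttk* (Mps1), which starts checkpoint signaling at kinetochores, had the largest difference (-0.82, SE 0.07, adjusted p = 8.37e-05). *Nek2*, a centrosome separation kinase, differed by -0.52, *Aurka*, the spindle pole Aurora kinase, by -0.48, and *Plk1*, the polo kinase that acts from entry to cytokinesis, by -0.37. These 4 kinases had IG27 arrays that all lay below their WT arrays, as did 42.4% of all genes.

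The spindle checkpoint genes were called lower in 3 of 4 cases, against 40% of all genes. *Bub1b*, which encodes BubR1 of the mitotic checkpoint complex, had normalized log2 levels of 2.04, 1.97, and 2.19 on the WT arrays and 0.93, 0.99, and 1.16 on the IG27 arrays, 2.06-fold lower (difference -1.04, SE 0.09, adjusted p = 8.92e-05). *Bub1*, the kinase that recruits it to kinetochores, was 0.64 lower on the log2 scale (SE 0.05, adjusted p = 5.36e-05), with all WT arrays at 2.94 or 2.95 and the IG27 arrays between 2.26 and 2.37. *Mad2l1*, the Mad2 protein that binds and blocks Cdc20, was 0.58 lower (SE 0.06, adjusted p = 2.79e-04). *Bub3*, the partner of both Bub proteins, was at 5.52, 5.38, and 5.57 in WT cells and 5.51, 5.46, and 5.48 in IG27 cells. Its groups overlapped, and the difference was -0.01 with a 95% interval from -0.16 to 0.15 (adjusted p = 0.927).

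The chromosomal passenger complex corrects faulty attachments and later marks the midzone. In this complex, 3 of 4 subunits were called lower, against 40% of all genes. *Birc5*, survivin, had normalized log2 levels of 6.46, 6.26, and 6.43 in WT cells and 5.73, 5.64, and 5.77 in IG27 cells (difference -0.67, SE 0.07, adjusted p = 2.81e-04). Its catalytic subunit *Aurkb* was at 3.56, 3.65, and 3.51 in WT cells and at 3.05, 3.09, and 3.17 in IG27 cells (difference -0.47, SE 0.06, adjusted p = 5.09e-04). In both genes the highest IG27 array lay below the lowest WT array, as in 42.4% of all genes. The scaffold *Incenp* differed by only -0.15 (SE 0.05, adjusted p = 0.0376), and this call was lost in 11 of 17 alternative fits, with adjusted p up to 0.496. *Cdca8*, borealin, was not called (difference -0.08, SE 0.08, adjusted p = 0.400), its 2 probes had opposite signs, and quantile normalization gave 0.03.

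Of the genes of anaphase onset, 3 of 4 were called lower and *Cdc20* was called higher, against 40% and 30.5% of all genes. *Cdc20*, the activator of the anaphase promoting complex that the checkpoint restrains, had normalized log2 levels of 5.46, 5.50, and 5.53 on the WT arrays and 5.67, 5.70, and 5.70 on the IG27 arrays. All IG27 arrays lay above all WT arrays, and the difference was 0.19 (SE 0.05, adjusted p = 0.00893), or 1.14-fold higher. With the slide row as a block this call was lost (adjusted p = 0.0627). Its promoter stretch printed above holds both TTTGAA and CCAAT. *Ube2c*, the conjugating enzyme of the complex, fell from 5.24, 5.29, and 5.24 to 4.74, 4.77, and 4.70 (difference -0.52, SE 0.05, adjusted p = 1.19e-04). *Pttg1*, securin, was 0.49 lower on the log2 scale (adjusted p = 0.00228) and *Espl1*, the separase that securin holds inactive, 0.45 lower (adjusted p = 0.00206). The securin call rested on the brighter probe, since the dimmer probe gave -0.17 with an adjusted p of 0.112.

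Within the kinetochore, 6 of 8 genes were called lower, against 40% of all genes. The 4 subunits of the Ndc80 complex, the main microtubule binding unit, did not move alike. *Spc25* had normalized log2 levels of 5.17, 5.18, and 5.26 in WT cells and 4.09, 4.0, and 4.02 in IG27 cells, 2.25-fold lower (difference -1.17, 95% interval -1.30 to -1.04, adjusted p = 5.62e-06). *Spc24*, its partner on the side of the complex that faces the chromosome, went from 4.31, 4.17, and 4.17 to 3.34, 3.21, and 3.20 (difference -0.97, 95% interval -1.13 to -0.80, adjusted p = 3.27e-05). For both of these inner subunits every IG27 array lay below every WT array, as in 42.4% of all genes. *Nuf2*, on the side that faces the microtubule, was at 3.85, 3.82, and 3.90 in WT cells and 3.51, 3.52, and 3.50 in IG27 cells, a smaller fall (difference -0.35, 95% interval -0.46 to -0.23, adjusted p = 6.66e-04). *Ndc80*, the partner of Nuf2, was at 1.86, 1.60, and 1.67 in WT cells and 1.85, 1.92, and 1.94 in IG27 cells, so that the groups overlapped (difference 0.19, 95% interval -0.002 to 0.38, adjusted p = 0.0708). *Ndc80* was called higher under quantile normalization (0.30, adjusted p = 0.0147), normexp background correction (0.30, adjusted p = 0.00482), an intensity trend (adjusted p = 0.0423), and without WT replicate 1 (0.27, adjusted p = 0.0114). The intervals of *Spc24* and *Spc25* do not reach those of *Nuf2* and *Ndc80*. The genes lie on different chromosomes, where the median of all tested genes was -0.64 for *Spc24* and -0.34 for *Spc25*. It was -0.01 for *Nuf2* and 0.16 for *Ndc80*. The differences between subunits, and the part of the chromosome in them, were not tested.

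Of the other kinetochore genes, *Cenpe*, a kinesin that moves chromosomes to the spindle equator, had the largest fall (difference -0.94, SE 0.06, adjusted p = 1.93e-05), from 4.73, 4.78, and 4.86 to 3.82, 3.81, and 3.91 in normalized log2 levels. *Knstrn*, kinastrin, fell by 0.68 and *Cenpf*, a large protein of the outer kinetochore, by 0.57 on the log2 scale, with adjusted p of 2.55e-04 and 0.00229, although the dimmer probe of *Cenpf* gave -0.21 with an adjusted p of 0.107. *Cenpa*, the histone H3 variant that marks centromeres, was at 4.22, 4.07, and 4.14 in WT cells and 4.22, 4.10, and 4.20 in IG27 cells. These values overlapped almost fully, with a difference of 0.03 (95% interval -0.13 to 0.18, adjusted p = 0.716), although quantile normalization called it higher (0.17, adjusted p = 0.0348).

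The spindle kinesins held some of the largest falls. *Kif4*, a chromokinesin of chromosome arms and the midzone, had normalized log2 levels of 3.18, 3.14, and 3.15 on the WT arrays and 1.83, 1.94, and 1.95 on the IG27 arrays, 2.38-fold lower (difference -1.25, SE 0.05, adjusted p = 4.13e-06). *Kif15*, which helps keep the spindle bipolar, fell 2.34-fold, from 1.15, 1.07, and 0.98 to -0.28, -0.12, and -0.07 (difference -1.23, SE 0.08, adjusted p = 2.21e-05). *Kif18a*, which dampens chromosome movements, went from 0.78, 0.68, and 0.83 to -0.14, -0.14, and -0.34 (difference -0.97, SE 0.08, adjusted p = 6.90e-05). In each of these 3 genes the highest IG27 array lay below the lowest WT array, as in 42.4% of all genes. *Kif11*, the Eg5 motor that pushes spindle poles apart, fell less (-0.44, adjusted p = 0.00175), as did *Tpx2*, which activates Aurora A on the spindle (-0.52, adjusted p = 8.11e-05). *Kif2c*, the depolymerase MCAK, was not called (difference 0.06, SE 0.05, adjusted p = 0.361). *Kif20b*, a kinesin of late cytokinesis, was not called either (0.09, SE 0.05, adjusted p = 0.166), although its IG27 arrays, from 2.57 to 2.59, all lay above its WT arrays, from 2.45 to 2.56. The dimmer probe of *Kif20b* gave 0.63 (adjusted p = 0.0101), and quantile normalization called it (0.22, adjusted p = 0.00486) and *Kif2c* (0.14, adjusted p = 0.0487) higher.

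Among the genes of the midzone and cytokinesis, 4 of 6 were called lower, against 40% of all genes. *Ect2*, the exchange factor that activates RhoA at the cell equator, fell the most of all 52 genes. Its normalized log2 levels were 3.45, 3.40, and 3.52 in WT cells and 1.85, 1.97, and 1.94 in IG27 cells. The groups stood further apart than any spread within them, and *Ect2* was 2.90-fold lower in IG27 cells (difference -1.53, SE 0.06, adjusted p = 2.47e-06). *Kif23*, the MKLP1 motor of the centralspindlin complex that recruits Ect2, fell 2.05-fold, from 2.69, 2.68, and 2.87 to 1.59, 1.77, and 1.78 (difference -1.03, SE 0.08, adjusted p = 5.65e-05). *Racgap1*, the other subunit of centralspindlin, was at 4.23, 4.26, and 4.31 in WT cells and 4.05, 4.21, and 4.02 in IG27 cells, with no overlap but a difference of only -0.17 (SE 0.06, adjusted p = 0.0503). Its dimmer probe, which stands for another transcript record of the gene, differed the other way (0.69, adjusted p = 5.34e-04), so no direction can be given for *Racgap1*.

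*Anln*, anillin, a scaffold of the contractile ring, fell by 0.70 on the log2 scale (SE 0.06, adjusted p = 1.18e-04), while its dimmer probe gave -0.35 with an adjusted p of 0.409. *Kif20a*, the MKLP2 motor that carries the passenger complex to the midzone, fell by 0.46 (SE 0.07, adjusted p = 0.00175). *Prc1*, which bundles the antiparallel microtubules of the midzone, was not called, with WT arrays between 5.32 and 5.63 and IG27 arrays between 5.42 and 5.52. Its difference was -0.07 (95% interval -0.31 to 0.17, adjusted p = 0.555), 0.03 under quantile normalization, and -0.25 for its dimmer probe (adjusted p = 0.00600).

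The subunits of condensin, the ring complex that compacts mitotic chromosomes, moved in opposite directions. *Smc4* had normalized log2 levels of 5.44, 5.36, and 5.55 on the WT arrays and 4.43, 4.40, and 4.53 on the IG27 arrays (difference -0.996, 95% interval -1.16 to -0.83, adjusted p = 3.24e-05). *Smc2*, which pairs with Smc4 in the same ring, was at 3.57, 3.47, and 3.60 in WT cells and 4.05, 4.05, and 4.0 in IG27 cells (difference 0.49, 95% interval 0.36 to 0.62, adjusted p = 3.03e-04). Smc4 was thus lower on every IG27 array and Smc2 higher on every IG27 array, and their intervals lie on opposite sides of 0. The 3 probes of *Smc2* all gave a rise, from 0.48 to 0.71, and the 3 probes of *Smc4* all a fall, from -0.996 to -0.52, the smallest of them with an adjusted p of 0.0658 in the fit on the dimmest probes. Of the subunits particular to condensin I, *Ncaph* fell from 4.77, 4.57, and 4.79 to 3.80, 3.86, and 3.75 (difference -0.91, SE 0.07, adjusted p = 7.03e-05), and *Ncapd2* fell by 0.56 on the log2 scale (adjusted p = 9.05e-04). The other condensin I subunit, *Ncapg*, was not called (difference -0.11, 95% interval -0.32 to 0.10, adjusted p = 0.277) and had a difference of 0.03 under quantile normalization. *Top2a*, the topoisomerase that untangles sister chromatids, was at 5.38, 5.36, and 5.45 in WT cells and 4.81, 4.78, and 4.82 in IG27 cells (difference -0.59, SE 0.05, adjusted p = 6.65e-05).

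Both transcription factors of the late cell cycle fell. *Foxm1* had normalized log2 levels of 4.21, 4.04, and 4.05 in WT cells and 3.20, 3.16, and 3.16 in IG27 cells, 1.90-fold lower (difference -0.93, SE 0.06, adjusted p = 2.97e-05). *Mybl2*, B-Myb, was at 4.14, 4.16, and 4.16 in WT cells and 3.38, 3.42, and 3.35 in IG27 cells, 1.71-fold lower (difference -0.77, SE 0.04, adjusted p = 1.46e-05). In both genes every IG27 array lay below every WT array, as in 42.4% of all genes. *Mki67*, whose protein Ki-67 coats mitotic chromosomes and is the usual histological marker of cycling cells, was at 5.71, 6.51, and 6.58 on the WT arrays and 5.99, 6.07, and 5.97 on the IG27 arrays. WT replicate 1 lay below all IG27 arrays and the other WT arrays above them, and *Mki67* was not called (difference -0.25, 95% interval -0.82 to 0.32, adjusted p = 0.368). Without WT replicate 1 the difference was -0.53 and was called (adjusted p = 8.73e-04).

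More than 1 probe was tested for 27 of the 52 genes. In 25 of them all probes had the same sign, the exceptions being *Cdca8* (-0.08 and 0.08) and *Racgap1* (-0.17 and 0.69). Probes of *Ect2* (-1.53 and -1.45), *Ccna2* (-1.38 and -1.31), *Spc25* (-1.26 and -1.17), and *Ncaph* (-0.92 and -0.91) lay close together. Those of *Kif15* (-1.23 to -0.78), *Foxm1* (-0.93 and -0.58), and *Cdc25b* (-0.77 and -0.37) differed more in size.

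The differences varied with the chromosome. Among the 16 chromosomes that hold a mitotic gene, the median difference of all tested genes ran from -0.64 on chromosome 9 to 0.30 on chromosome 15 and 0.33 on chromosome 4. On chromosome 2, all 11 mitotic genes were called lower (median -0.77), where 58.0% of the 1149 tested genes were lower. On chromosome 9, all 6 were called lower (*Kif15*, *Ccnb2*, *Kif23*, *Spc24*, *Ttk*, and *Anln*, median -0.999), where 71.1% of the 813 tested genes were lower. On chromosome 4, none of 4 was called lower (*Cdc20* and *Smc2* were higher, *Kif2c* and *Cdca8* not called), where 14.3% of 968 tested genes were lower. On chromosome 7, 1 of 4 was called lower (*Plk1*), where 21.8% of 1220 tested genes were lower, and *Bub3*, *Prc1*, and *Mki67* were not called.

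Set against the median of its own chromosome, a mitotic gene was lower in 50 of 52 cases, the exceptions being *Smc2* on chromosome 4 and *Ndc80* on chromosome 17. The median difference from the chromosome median was -0.39, beside -0.53 without it. *Cdc20* at 0.19 lay below the median of chromosome 4 at 0.33. The 4 genes on chromosome 3 lay well below its median of -0.31 (*Ect2*, *Ccna2*, *Smc4*, and *Cenpe*, median -1.19), and so did those on chromosome 11, at -0.12 (*Birc5*, *Top2a*, *Pttg1*, and *Aurkb*, median -0.54), and the 3 on chromosome 1, at -0.01 (*Cenpf*, *Nek2*, and *Nuf2*, median -0.52). The part of the chromosome shifts in the mitotic differences was not tested.

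**Figure D4:**
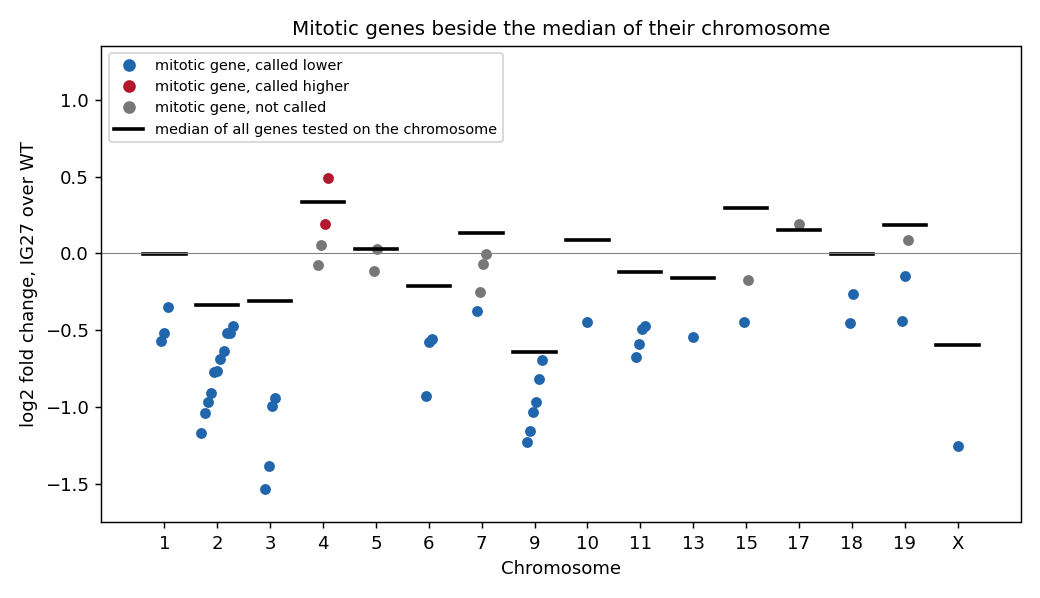
Difference of each mitotic gene beside the median of its chromosome (horizontal axis: the 16 chromosomes that hold a mitotic gene; vertical axis: log2 fold change, IG27 over WT; points: mitotic genes by call; bars: median of all genes tested on the chromosome). Points lie below the bar for 50 of 52 genes, and the 2 genes called higher are both on chromosome 4, where the bar is at 0.33.

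A wider list of 130 other mitotic genes moved less evenly. Of the 128 tested (*Chmp4c* and *Arhgap19* did not pass the filter on dim probes), 73 were called lower and 25 higher, against 40% and 30.5% of all genes, with a median difference of -0.29. At least 2-fold lower were 17 of the 128, a share near the 11.7% of all genes. The largest falls were those of *Haus4*, an augmin subunit that branches spindle microtubules (difference -1.91, adjusted p = 3.71e-06), *Nusap1*, a spindle microtubule binder (-1.64, adjusted p = 9.76e-07), *Ska3* of the kinetochore Ska complex (-1.46, adjusted p = 9.77e-07), the kinase *Lats2* (-1.42, adjusted p = 2.53e-06), and *E2f4*, the E2F of the DREAM complex (-1.35, adjusted p = 0.00163). The largest rises were those of the phosphatase *Cdc14b* (2.39, adjusted p = 5.91e-07), *Wee1*, the kinase that holds Cdk1 inactive (1.07, adjusted p = 6.04e-06), *Anapc16* of the anaphase promoting complex (0.90, adjusted p = 8.09e-06), the kinase *Lats1* (0.88, adjusted p = 3.69e-05), and the augmin subunit *Haus6* (0.68, adjusted p = 1.56e-04). These 10 genes were picked among called genes without overlap between groups, so the lack of overlap is not a result.

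By role, 11 of 15 outer kinetochore genes of the wider list were lower and 2 higher, and 15 of 23 spindle assembly genes were lower and 2 higher, where 40% of all genes were lower and 30.5% higher. Of the 17 genes of the anaphase promoting complex and its regulators 8 were lower and 5 higher, and of the 17 genes of the constitutive centromere network 8 were lower and 3 higher, close to the share of lower calls over all genes. The 17 kinases, phosphatases and regulators of mitotic entry and exit were also close to it, with 8 lower and 5 higher. Of the DREAM and MYB-MuvB genes, 8 of 11 were lower, among them *Tfdp1* (-1.26), *E2f5* (-1.23), and *Rbl1* (-0.40), and *Lin37* (0.39) and *Rbbp4* (0.44) were higher. The TTTGAA element was in 42 of the 108 windows of the wider list (38.9%). Against the median of their own chromosome, 79 of the 128 genes were lower.

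Genes of DNA replication, which act in S phase, showed no shift as a list. Of 53 tested, 18 were called lower and 16 higher, against 40% and 30.5% of all genes. None was called at 2-fold, and the median difference was -0.05 beside -0.07 for all genes. Among the largest falls were *Orc6* (-0.94), *Gins2* (-0.84), *Dut* (-0.82), and *Rrm2* (-0.66), and the largest rises were *Orc3* (0.86), *Pold3* (0.60), *Orc1* (0.52), *Gins3* (0.42), and *Rpa3* (0.40), with adjusted p from 1.39e-05 to 0.0462. In their promoter windows, TTTGAA was found in 7 of 43 (16.3%) and an E2F octamer in 16 of 43 (37.2%), where the mitotic genes had 30 of 43 and 5 of 43. Whether the mitotic genes differ from the replication genes or the wider mitotic list beyond these counts was not tested.

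**Figure D5:**
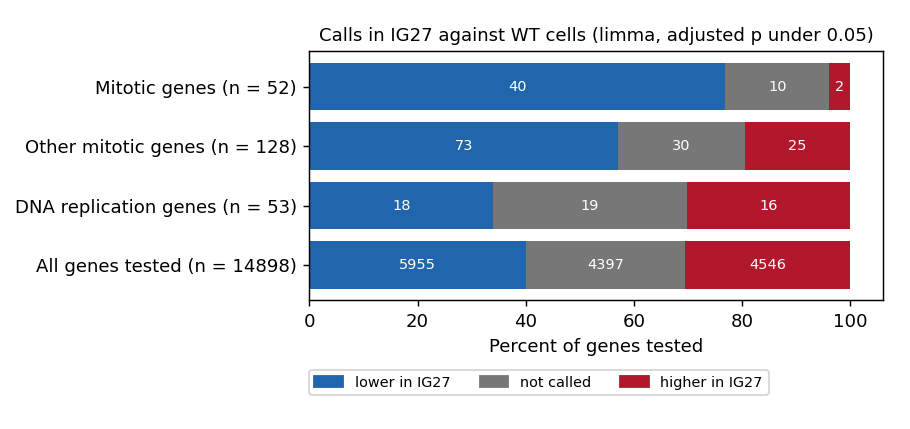
Calls in IG27 against WT cells for the 52 mitotic genes, 128 other mitotic genes, 53 DNA replication genes, and all 14898 genes tested (horizontal axis: percent of genes tested; bar parts: called lower, not called, called higher, by limma with adjusted p under 0.05; numbers: genes). The lower part takes 40 of 52 mitotic genes and 18 of 53 replication genes, and 5955 of all genes.

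Markers of other cell types moved between the groups as well. Of the glial list, 13 of 15 genes were well above background in WT cells and 15 in IG27 cells, and its summed linear level, relative to the 75th percentile, was 367 to 384 in WT cells and 290 to 304 in IG27 cells. The fibroblast and mural list had 4 of 8 genes well above background in WT cells and 5 in IG27 cells (summed level 173 to 177 against 150 to 158). The neuron list had 3 of 7 in each group (17.6 to 20.02 against 9.98 to 11.03), the microglia and leukocyte list 3 and 4 of 6 (12.5 to 12.9 against 13.0 to 13.3), and the endothelial list 1 and 2 of 6 (0.20 to 0.24 against 2.62 to 2.68). Within these lists genes moved both ways. The endothelial sum in IG27 cells was mostly *Kdr*, whose normalized log2 levels in IG27 cells ran from 1.29 to 1.33 and whose WT levels were not above background. In the neuron list, *Tubb3* went from 3.69 to 3.86 in WT cells to 1.10 to 1.19 in IG27 cells, *Stmn2* was well above background in WT cells only, and *Map2* on all flagged arrays in IG27 cells only. The part of these markers in the mitotic differences was not tested.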

How the data were processed

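RNA of 3 WT and 3 IG27 samples, labeled with Cy3 from 0.5 µg, was hybridized to 6 single-color Agilent mouse arrays on 1 slide. The authors read spots with Feature Extraction (10.7.3.1 in the scanner output, 9.1 in the submitters' processing notes), and the deposited processed signal is a linear intensity after that software's background handling. Genome positions were given for mm9 and were not used. The table that replaced the incomplete array exchanges the columns of WT replicates 2 and 3 (56305 of 56305 single-spot probes equal crosswise, relative tolerance 1e-04), and each array was taken under its scanner label. From the deposited intensity, log2 values were computed and set relative to the 75th percentile of their array, outlier spots (107 to 210 on each of the 5 complete arrays) were left out, and no spot read from scanner output was saturated. Median signal was 55.4 to 77.6 and median background 29 to 34. Probes were named by RefSeq accession (29339 of 29638 NM accessions matched), genes by their brightest probe, and genes well above background on every flagged array of at least 1 group were tested.

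Differences were tested with limma 3.58.1 in R 4.3.3 through a linear model with moderated variances (lmFit, then eBayes). Tests were two-sided without a block, and p was adjusted by Benjamini-Hochberg over all 14898 genes, with calls at 0.05. The number of arrays limits the precision, and an exact test of 3 against 3 arrays cannot go below p = 0.1. The steps were tested on simulated data. The mitotic genes, the comparison lists and the promoter elements were chosen with earlier results of these data known, and lists are given as counts and medians without a test. Every gene of the main list could be named, and of the other lists the 5 largest rises and falls among called genes without overlap, of which 1 is not reported here. *Tfdp1*, *E2f5*, *Rbl1*, *Lin37*, and *Rbbp4* were named after their values were seen. Deviations of WT and IG27 arrays of the same number had correlations of 0.01, 0.04, and 0.08, which cannot settle whether numbers pair the samples. The labels do not say so either, and replicate numbers were used as a block only in an alternative. The other alternatives were quantile normalization, other filters, probes, background correction and variance prior, the slide row as a block, each array left out, and the methods' unadjusted threshold.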

Additional observations from a re-analysis of the deposited data

How the results depend on the processing

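The number of mitotic genes called lower ran from 37 (dimmest probe of each gene) to 41 under 18 alternatives, against 40. The 40 genes called lower had a negative difference in all 17 refits, and 34 of them were called in every one. The median difference was -0.42 under quantile normalization and -0.50 with the slide row as a block, and -0.57 to -0.53 when each array was left out in turn. The number called higher, 2, became 6 under quantile normalization (*Smc2*, *Cdc20*, *Kif20b*, *Kif2c*, *Ndc80*, and *Cenpa*), 4 with the mean of probes, 4 with the dimmest probe, and 1 with the slide row as a block, where *Cdc20* had an adjusted p of 0.0627, and 2 to 3 when each array was left out. *Racgap1* reversed to 0.26 with the mean of probes (adjusted p = 0.0108) and to 0.69 with the dimmest probe (adjusted p = 5.34e-04). Of 884 gene results in the refits, 849 kept their call, or stayed uncalled (where the sign could change, as for *Bub3*, *Cdca8*, *Ncapg*, and *Prc1* under quantile normalization), 17 lost the call (11 of them *Incenp*), 16 gained one, and 2 reversed. The cause of these changes was not tested. All IG27 arrays and WT replicate 2 lay in one row of the slide, so the row block compares IG27 cells with that array alone. With the replicate block, 39 mitotic genes were called lower and 2 higher, and the only mitotic call it changed was *Incenp* (adjusted p = 0.0780). Calls over all genes ran from 8946 to 10855, and the median of all genes was 0.12 without a filter on dim probes. Dim genes and small differences such as those of *Bub3* and *Cenpa* are limited by 3 arrays a group.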

Other observations

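*Mki67* was not the only gene of these lists for which WT replicate 1 lay apart from the other WT arrays. *Pold3*, a subunit of DNA polymerase delta, had normalized log2 levels of 2.29, 3.01, and 3.12 on the WT arrays and 3.40, 3.37, and 3.46 on the IG27 arrays. *Cdc26*, a subunit of the anaphase promoting complex, was at 0.54, 1.87, and 1.82 in WT cells and 2.39, 2.31, and 2.18 in IG27 cells (difference 0.88, limma adjusted p = 0.0683). The spindle gene *Dlgap5* was at -0.43, 0.65, and 0.54 in WT cells and -0.57, -0.28, and -0.21 in IG27 cells (difference -0.61, limma adjusted p = 0.112), and *Cdc14a* at -0.14, 0.41, and 0.51 in WT cells and 0.39, 0.47, and 0.51 in IG27 cells (difference 0.19, limma adjusted p = 0.352). WT replicate 1 was the lowest WT array in each. All were noted after their values were seen, and groups of 3 arrays were too small for an outlier test.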
